A study of Mus musculus with 12 samples.

Results

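The adrenergic receptors and cAMP phosphodiesterases considered here were 8 genes of the pathway through which noradrenaline drives lipolysis and heat production in fat: Adrb1, Adrb3, Adra2a, Pde3a, Pde3b, Pde4b, Pde4d and Prkar2b. They were 8 of the 22380 protein-coding genes annotated on the mouse genome build mm9. For each gene, the peaks of H3K9 methylation lying within 3 kb of any annotated transcription start or inside the gene were collected from 8 peak lists. The genes were selected on their measured promoter peaks and scores in these same lists, so their presence and scores are given as a description with no test.

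The lists came from ChIP-seq for H3K9me2 and H3K9me3 in brown adipose tissue (BAT) and subcutaneous white adipose tissue (WAT) of wild-type C57BL/6J mice kept on standard chow (SCD) or on a diet rich in fat (HFD). Feeding began at 6 weeks of age and lasted 12 weeks, and chromatin was crosslinked with 1% formaldehyde for 8 min. Each combination of diet, tissue and mark was represented by 1 library, so the spread between animals was unknown, no difference between diets could be tested, and the diet and the library cannot be told apart. The 4 input libraries had no peak list among the files analysed. The marks are named as in the sample labels, whereas the study's methods pair the H3K9me2 name with an antibody catalogued for the trimethyl mark and the H3K9me3 name with one for the dimethyl mark, so which mark each name stands for is uncertain. Peak lists hold no expression values, and the tissue labels could therefore not be checked against marker genes.

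The β-adrenergic receptors encoded by Adrb1 and Adrb3 couple to Gs and raise cAMP through adenylyl cyclase, whereas the α2A receptor encoded by Adra2a couples to Gi and lowers it. cAMP releases the catalytic subunits of protein kinase A from regulatory subunits such as RIIβ, the product of Prkar2b that is abundant in fat, and the kinase then drives lipolysis and, in brown fat, thermogenesis. Phosphodiesterases hydrolyse cAMP: PDE3B carries the antilipolytic action of insulin in adipocytes, PDE3A is its close relative in heart and vessels, and PDE4B and PDE4D belong to the cAMP-specific PDE4 family, whose genes make many isoforms from alternative starts. H3K9me2 and H3K9me3 are marks known for silent chromatin and for repeated sequences.

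The lists held between 21976 and 52758 peaks. Each peak carried a score, taken to be the peak caller's p-value on a −log10 scale multiplied by 10. The lowest score was 30 in the SCD WAT lists of both marks and between 50 and 50.01 in the other 6 lists, so weak peaks could enter the SCD WAT lists that could not enter the others. Scores grow with sequencing depth, which was unknown, and were not scaled between libraries. Each score is therefore given with the percent of peaks in its own list that scored lower, called its rank below. The rank in turn depends on the lower limit of its list and on how many weak peaks the list holds. A score of 57.64 ranked 78.1% in SCD WAT H3K9me3, whereas 56.25 ranked 17.5% in HFD WAT H3K9me3. Ranks in WAT are therefore not on the same footing in the 2 diets. Nor are ranks in BAT, where the lowest scores were alike but the HFD lists were longer. BAT H3K9me2 had 24887 peaks under SCD and 43173 under HFD, and BAT H3K9me3 26835 and 52758. In BAT H3K9me2, Adrb3 scores of 181.5 under SCD and 182 under HFD ranked 84.9% and 92.3%.

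Sequences around the starts were read from the mm9 genome, 250 bases upstream of a start, 5′ to 3′ on the strand of the gene, with CG dinucleotides in capitals. Pde3b and Adrb1 are shown because their promoters carried a peak in 1 diet but not the other in BAT, and Adrb3 because its most 5′ start, shown here, was reached by no peak. The windows were chr7:121558545-121558794 (plus strand), chr19:56796612-56796861 (plus strand) and chr8:28340061-28340310 (minus strand).
Pde3b: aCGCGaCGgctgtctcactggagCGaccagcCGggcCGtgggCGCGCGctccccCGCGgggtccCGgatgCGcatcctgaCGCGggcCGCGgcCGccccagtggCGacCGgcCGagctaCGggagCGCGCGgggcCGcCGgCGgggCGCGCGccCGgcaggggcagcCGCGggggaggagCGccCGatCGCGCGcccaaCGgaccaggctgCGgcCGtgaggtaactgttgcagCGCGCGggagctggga
Adrb1: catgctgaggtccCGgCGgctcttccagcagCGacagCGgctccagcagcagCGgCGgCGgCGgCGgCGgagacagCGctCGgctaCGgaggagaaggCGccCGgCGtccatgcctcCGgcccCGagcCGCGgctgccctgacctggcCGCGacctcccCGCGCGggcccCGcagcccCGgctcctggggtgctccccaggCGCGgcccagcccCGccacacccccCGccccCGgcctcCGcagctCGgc
Adrb3: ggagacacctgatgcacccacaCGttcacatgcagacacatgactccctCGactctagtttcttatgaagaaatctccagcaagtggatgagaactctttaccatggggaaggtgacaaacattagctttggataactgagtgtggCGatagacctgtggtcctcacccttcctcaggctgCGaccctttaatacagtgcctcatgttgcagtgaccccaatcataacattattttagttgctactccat

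The Pde3b stretch held 45 CG dinucleotides, the Adrb1 stretch 34 and the Adrb3 stretch 4. In the 1 kb centred on the start, GC content was 74.4% at Pde3b, higher than at 98.8% of protein-coding genes, 72.1% at Adrb1 and 48.1% at Adrb3, against a median of 54.8% over 22368 promoters. The region further into Adrb3 that did carry its peaks had a GC content of 60.7%, with 6.02 CG dinucleotides per 100 bases. The cAMP response element, spelled TGACGTCA, occurred on neither strand in the window from 250 bases upstream to 50 bases downstream of the most 5′ coding start in any of the 8 genes, and in 2.35% of the 22368 windows of the same length. Its shorter form TGACG, which the full element contains, was found in 2 of the 8, Adra2a and Pde3b, against 23.3% of all windows, and the GC box GGGCGG in 5 of the 8 against 43.9%. These are matches of letters and not evidence of binding.

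Most of the 8 genes carried promoter peaks in most lists. In BAT H3K9me2, 7 of the 8 had a promoter peak under SCD, where 43.3% of all protein-coding genes had one, and 7 of the 8 under HFD, against 45.6%. In BAT H3K9me3, all 8 had one under SCD, against 52.3%, and all 8 under HFD, against 58.9%. In WAT H3K9me2, all 8 had one under SCD, against 54.7%, and all 8 under HFD, against 39.3%. In WAT H3K9me3, 4 of the 8 had one under SCD, against 18.9%, and all 8 under HFD, against 35.9%. The genes were chosen with such peaks in view, so the excess over the background describes the choice.

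Adrb3, Adra2a, Pde4b and Pde4d had a promoter peak in all 8 lists, a pattern found at 7.41% of protein-coding genes. With a lowest score of 50 in every list this held for 2 of them, Pde4b and Pde4d, since the SCD WAT H3K9me3 peaks of Adrb3 and Adra2a scored 31.57 and 39.97. Pde3a and Prkar2b joined them in having a peak in at least 7 lists, as did 21.8% of genes, and Adrb1 and Pde3b completed the set at 6 lists or more, as did 34.2% of genes. No promoter peak in any list was found at 29.9% of protein-coding genes and at none of the 8. Both results for Pde4d rest on counting any of its 19 starts, where all 22380 genes together have 70064. With 1 start per gene, Pde4d had no promoter peak in any list. The genes with one in every list were then 3, Adrb3, Adra2a and Pde4b. The share of all genes under that rule is not given here. Without the SCD WAT H3K9me3 list, 6 of the 8 had a peak in every remaining list, against 18.1% of all genes.

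**Figure D1:**
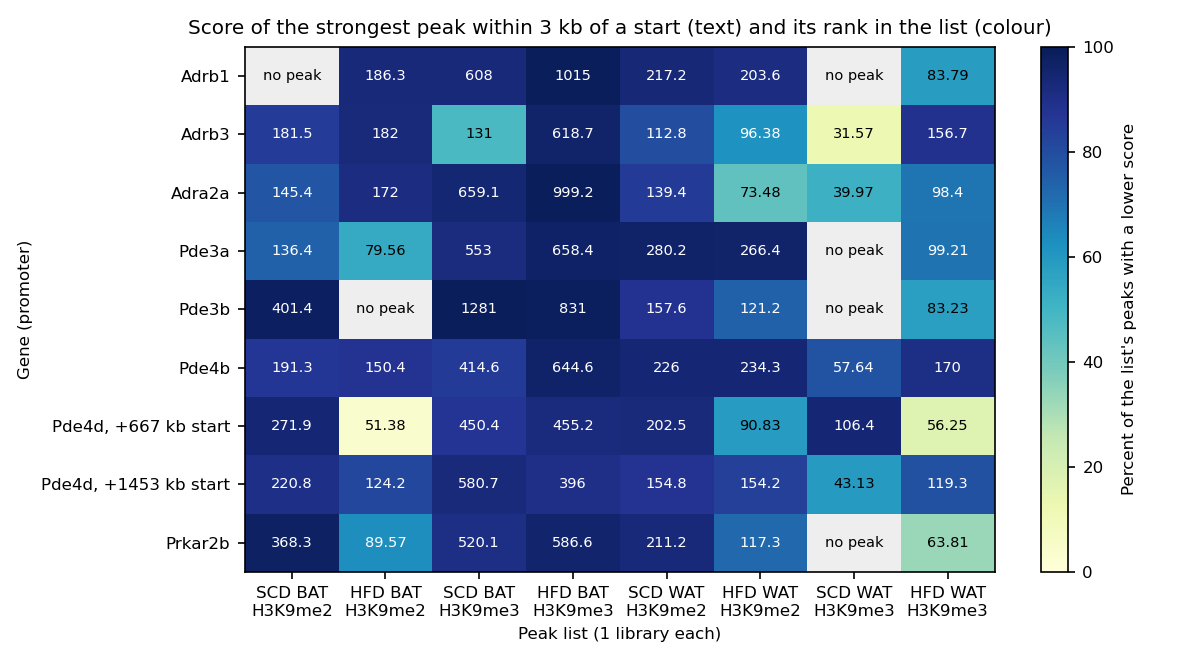
The grid gives, for each promoter (rows; Pde4d has a promoter at 2 places) and each of the 8 lists (columns, 1 library each), the score of the strongest peak within 3 kb of a start as text and its rank, the percent of the list's peaks with a lower score, as colour; grey cells had no peak. The empty cells are Adrb1 and Pde3b in 1 BAT H3K9me2 list each, and Adrb1, Pde3a, Pde3b and Prkar2b in SCD WAT H3K9me3.

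The β1-adrenergic receptor gene Adrb1, chr19:56796862-56799352 on the plus strand, has 1 annotated start and no intron in its annotated transcript. Its promoter peak was missing from SCD BAT H3K9me2 and scored 186.3 in HFD BAT H3K9me2. It scored 608 in SCD and 1015 in HFD BAT H3K9me3, and 217.2 in SCD and 203.6 in HFD WAT H3K9me2. In WAT H3K9me3 it was missing under SCD and scored 83.79 under HFD. Both absences fell in SCD lists, and there the nearest peak lay 54.01 kb away in BAT H3K9me2 and 125.2 kb away in WAT H3K9me3. The peaks that were present covered the start in 6 of 6 lists and shared 1493 bases, of which 1398 were coding sequence. HFD WAT H3K9me2 also listed a second, weaker peak just upstream of the start, with a score of 72.39.

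The β3-adrenergic receptor gene Adrb3, chr8:28336248-28340060 on the minus strand, encodes the main β-receptor of rodent adipocytes. Its peaks scored 181.5 in SCD and 182 in HFD BAT H3K9me2, and 131 in SCD and 618.7 in HFD BAT H3K9me3. In WAT H3K9me2 they scored 112.8 under SCD and 96.38 under HFD, and in WAT H3K9me3 31.57 under SCD and 156.7 under HFD. In BAT H3K9me2 the SCD and HFD scores were nearly equal. For H3K9me3 the rank moved from 47.8% under SCD to 95.9% under HFD in BAT and from 12.4% to 88.4% in WAT, the farthest upward move in each tissue among the promoters with an H3K9me3 peak in both diets. The score of 31.57 was just above the lowest score of its list and below that of the 6 lists with a higher lower limit. No Adrb3 peak reached the most 5′ start. All 8 lay around or beyond a pair of starts 1.005 and 1.094 kb further into the gene, and the 1138 bases that they shared held 1132 bases of coding sequence.

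The α2A-adrenergic receptor gene Adra2a, chr19:54119672-54123472 on the plus strand, carried the broadest peak of the set. Its scores were 145.4 in SCD and 172 in HFD BAT H3K9me2, and 659.1 in SCD and 999.2 in HFD BAT H3K9me3. They were 139.4 in SCD and 73.48 in HFD WAT H3K9me2, and 39.97 in SCD and 98.4 in HFD WAT H3K9me3. The HFD score was the higher in 3 of the 4 comparisons and the lower in WAT H3K9me2. The strongest peak was 3251 bases wide in SCD BAT H3K9me3. In WAT H3K9me2 it was 2022 bases wide under SCD and 674 under HFD. SCD WAT H3K9me2 also listed a weaker peak further downstream, 1044 bases wide with a score of 103.7. In WAT H3K9me3 the SCD and HFD peaks shared no base, with the SCD peak centred 1103 bases and the HFD peak 225 bases downstream of the start. In BAT H3K9me2 both peaks began downstream of the start, with their centres at 1753 and 1843 bases. Among the 8 genes, only Adra2a had SCD and HFD peaks of the same tissue and mark at the same start that did not overlap.

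Pde3a, chr6:141197790-141447872 on the plus strand, had promoter peaks in 7 lists. They scored 136.4 in SCD and 79.56 in HFD BAT H3K9me2, and 553 in SCD and 658.4 in HFD BAT H3K9me3. In WAT H3K9me2 they scored 280.2 under SCD and 266.4 under HFD. In WAT H3K9me3 no peak was listed under SCD, where the nearest lay 48.32 kb away, and the HFD peak scored 99.21. The peaks shared 905 bases and centred within 194 bases of the second annotated start, 0.723 kb inside the gene.

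Pde3b, chr7:121558795-121682765 on the plus strand, gave the strongest promoter peak of the set, 1281 in SCD BAT H3K9me3, against 831 under HFD. In BAT H3K9me2 its peak scored 401.4 under SCD and none was listed under HFD, where the nearest peak lay 88.78 kb from the gene start. In WAT H3K9me2 the peaks scored 157.6 under SCD and 121.2 under HFD, and in WAT H3K9me3 none was listed under SCD and the HFD peak scored 83.23. Under HFD in WAT, the strongest Pde3b peaks were short and lay beyond the start, at 829 bases wide in H3K9me2, against 1495 bases under SCD, and 680 bases wide in H3K9me3, where SCD had none. In BAT the peak was 2081 bases wide in SCD H3K9me2, 2214 in SCD H3K9me3 and 1950 in HFD H3K9me3. HFD WAT H3K9me2 again listed a weaker peak upstream of the start, with a score of 52.61. The other annotated starts of Pde3b, 90.9 and 106.5 kb inside the gene, belong to retained-intron transcripts and had no peak in any list.

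Pde4b, chr4:101760148-102279864 on the plus strand, had a peak at the same place in all 8 lists. Its scores were 191.3 in SCD and 150.4 in HFD BAT H3K9me2, and 414.6 and 644.6 in BAT H3K9me3. In WAT they were 226 under SCD and 234.3 under HFD for H3K9me2, and 57.64 and 170 for H3K9me3. Its rank stayed between 78.1% and 96.3% over the 8 lists. The peaks covered the start in all 8 lists and shared 1043 bases. Of 13 annotated starts, the 3 at the 5′ end had a peak in every list, and the other 10, from 167.2 to 502.3 kb inside the gene, had none in any list, although 8 of those 10 begin a protein-coding transcript.

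Pde4d, chr13:109240142-110743669 on the plus strand, is the longest of the 8 and has 19 annotated starts. Peaks in all 8 lists marked 5 starts, in a cluster 666.3 to 666.7 kb and another 1453 kb inside the gene. A further 3 starts had peaks in 1 or 2 lists and 11 had none, among them the most 5′ coding start at 204.2 kb. At the 666.7 kb start the scores were 271.9 in SCD and 51.38 in HFD BAT H3K9me2, and 450.4 and 455.2 in BAT H3K9me3. WAT gave 202.5 under SCD and 90.83 under HFD for H3K9me2, and 106.4 and 56.25 for H3K9me3. The HFD score was thus the lower in 3 of the 4 comparisons. At the 1453 kb start they were 220.8 in SCD and 124.2 in HFD BAT H3K9me2, and 580.7 and 396 in BAT H3K9me3. WAT gave 154.8 under SCD and 154.2 under HFD for H3K9me2, and 43.13 and 119.3 for H3K9me3. The HFD rank at the 666.7 kb start fell to 4.0% from 94.0% in BAT H3K9me2 and to 17.5% from 93.9% in WAT H3K9me3, whereas at the 1453 kb start it moved from 90.2% to 81.3% and from 59.0% to 78.9%. In WAT H3K9me3 the ranks at these promoters of the same gene thus moved in opposite directions.

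Prkar2b, chr12:32643341-32746161 on the minus strand, had promoter peaks in 7 lists. They scored 368.3 in SCD and 89.57 in HFD BAT H3K9me2, and 520.1 in SCD and 586.6 in HFD BAT H3K9me3. In WAT H3K9me2 they scored 211.2 under SCD and 117.3 under HFD, and in WAT H3K9me3 none was listed under SCD and the HFD peak scored 63.81. The BAT H3K9me2 rank fell from 97.4% to 63.0%. All 7 peaks covered a start and shared 710 bases, which included coding sequence, untranslated sequence and intron.

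**Figure D2:**
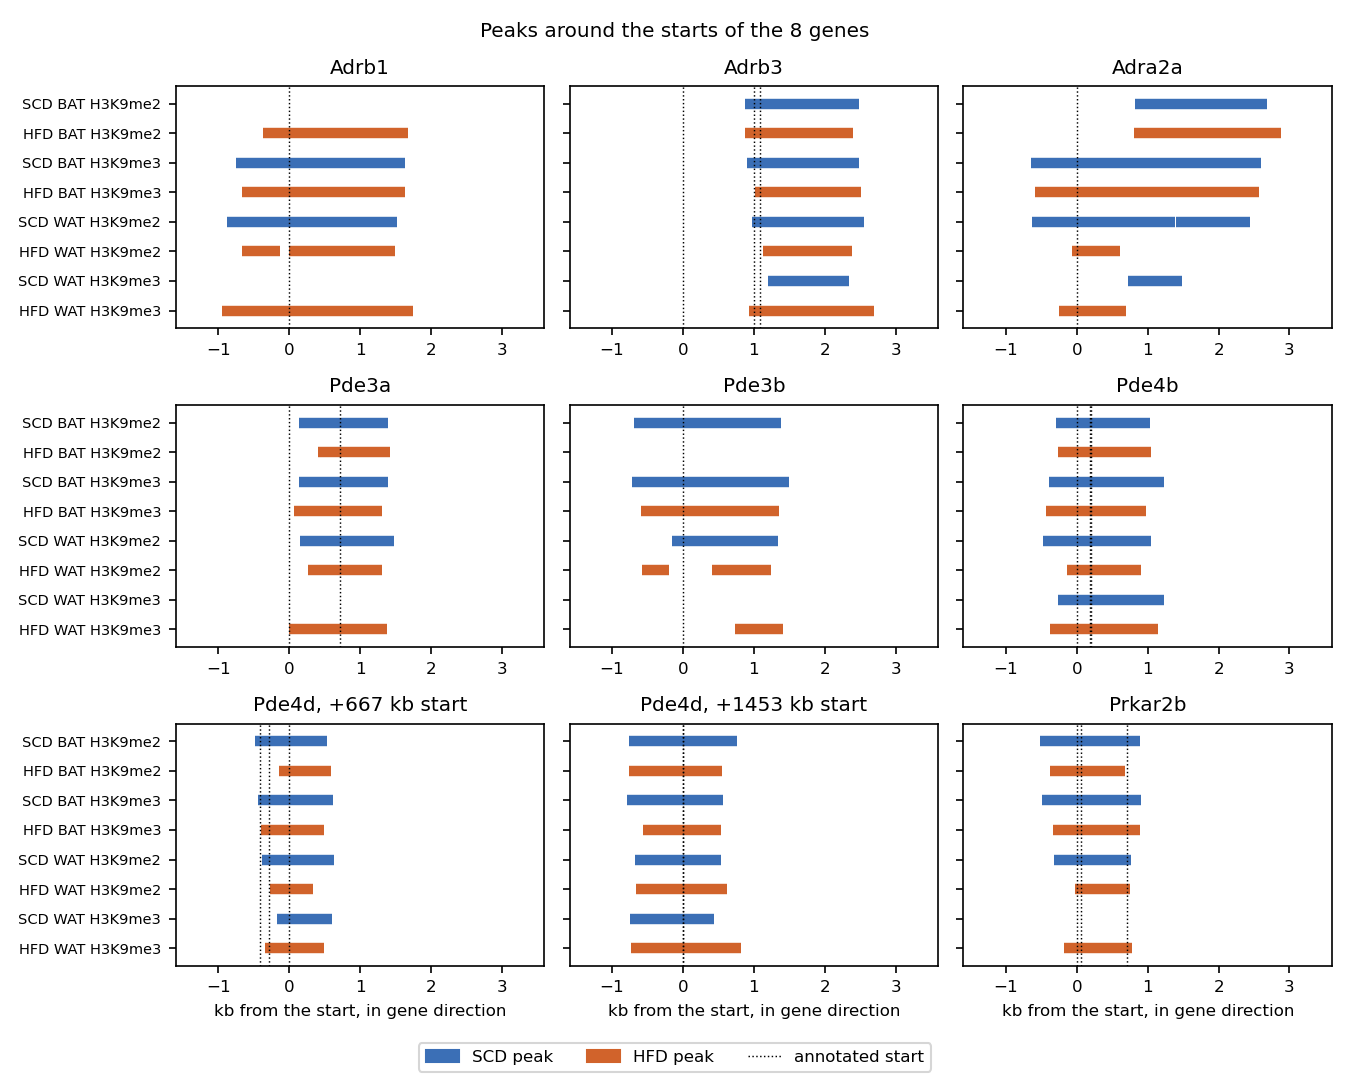
Each panel draws the promoter peaks of 1 gene (Pde4d at 2 promoters) as bars, 1 row per list, SCD in blue and HFD in orange, against distance in kb from a start in the direction of the gene; dotted lines are annotated starts. Peaks extend mostly downstream, Adrb3 peaks cover the inner start 1.094 kb into the gene in 6 of 8 lists and lie beyond it in HFD WAT H3K9me2 and SCD WAT H3K9me3, and the SCD and HFD bars of Adra2a in WAT H3K9me3 do not overlap.

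Taking the strongest promoter peak of each gene in each list, 58 in all, 53 were centred downstream of the nearest start and 51 covered a start. Over all genes with a promoter peak, the centre lay downstream at 64.8% to 70.1% in the 8 lists and the peak covered a start at 47.2% to 86.9%. The strongest peaks of the 8 genes were 674 to 3251 bases wide, with a median of 1391.5 bases. Their median rank was 90.5%, and within single lists the median rank of the 8 genes was 64.8% to 96.4%, against 57.9% to 79.8% for all genes with a promoter peak. At the limit of the promoter rule, the farthest peak counted was a Pde4d peak 1920 bases from a start in HFD WAT H3K9me3, and the nearest left out was a Pde4d peak 7480 bases from a start in HFD BAT H3K9me3.

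For diet, promoter peaks present under SCD but not HFD, and the reverse, were compared within each tissue and mark. In BAT H3K9me2, Pde3b had a peak under SCD only, as did 11.5% of protein-coding genes, and Adrb1 under HFD only, as did 13.8%, while the other 6 had one in both diets, as did 31.8%. The Pde3b peak had the highest score, rank 1 of 2564, among genes with a peak under SCD only, whose median score was 83.59. The Adrb1 peak ranked 110 of 3079 genes with a peak under HFD only, whose median was 73.73. Both genes kept these states under every alternative processing tried. The alternatives only removed peaks or narrowed the rule, so a missing peak could not appear under any of them. The peaks that were present ranked high, at 98.0% for Pde3b and 92.7% for Adrb1. The alternatives therefore could not put these states to a test.

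In BAT H3K9me3, none of the 8 had a peak in 1 diet only. A peak under SCD only was found at 2.16% of all genes, under HFD only at 8.83% and in both diets at 50.1%. In WAT H3K9me2 again none did, where a peak under SCD only was found at 18% of genes, under HFD only at 2.63% and in both diets at 36.7%. The SCD lists of WAT reach down to a score of 30 and the HFD lists to 50. With a lowest score of 50 in both WAT H3K9me2 lists, the shares were 10.2% under SCD only and 7.16% under HFD only. In WAT H3K9me3, Adrb1, Pde3a, Pde3b and Prkar2b had a peak under HFD only, as did 23.9% of all genes, none of the 8 had one under SCD only, against 6.89%, and Adrb3, Adra2a, Pde4b and Pde4d had one in both diets, against 12%. These 4 HFD-only peaks stood in the middle of the 5340 genes of that kind, at positions 1569 to 3807 by score. With a lowest score of 50 in both WAT H3K9me3 lists, 6 of the 8 were HFD only, Adrb3 and Adra2a being added, against 30.6% of all genes. The SCD WAT H3K9me3 list had a promoter peak at the fewest genes of the 8 lists, and the part of that list in the 4 absences was not tested.

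**Figure D3:**
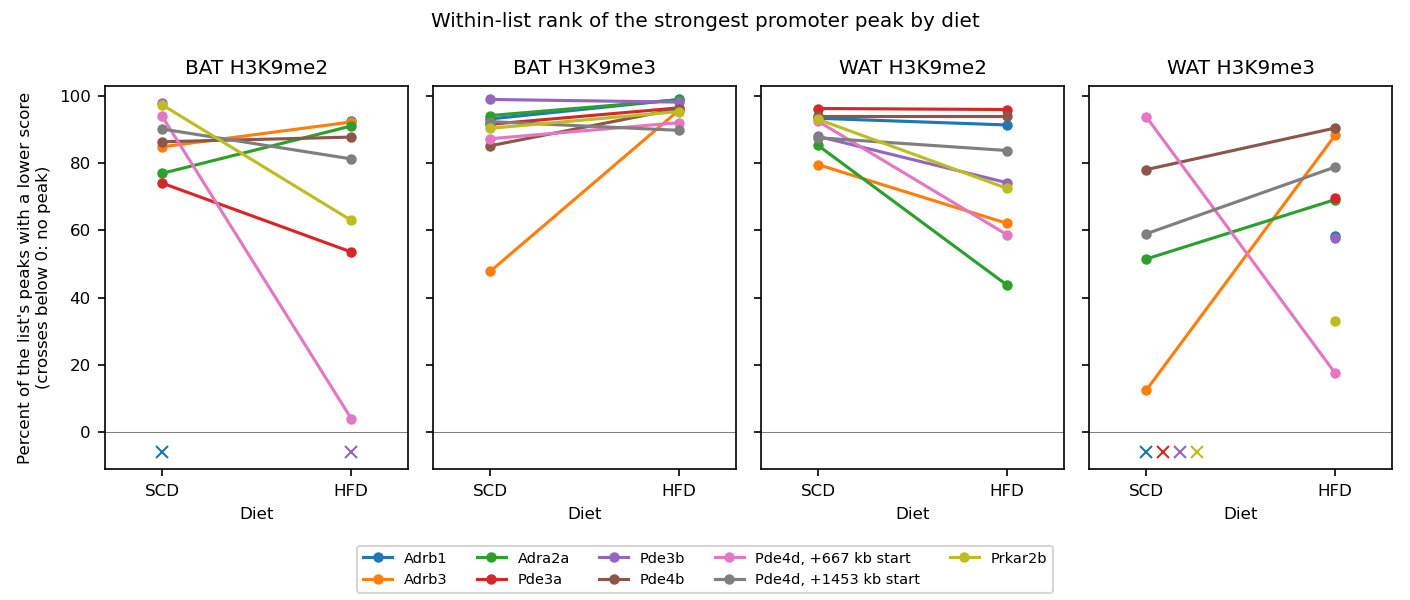
Each panel is 1 tissue and mark, with the rank of the strongest promoter peak (percent of the list's peaks with a lower score) on the vertical axis for the SCD and the HFD library, joined by a line for each promoter; crosses below 0 mark a promoter with no peak. BAT H3K9me3 ranks are 85.2% or more apart from Adrb3 under SCD at 47.8%. WAT H3K9me2 ranks are lower under HFD at 8 of the 9 promoters, and the lines of the Pde4d start at 666.7 kb and of Adrb3 cross in WAT H3K9me3. In WAT the SCD lists reach down to a score of 30 and the HFD lists to 50, which also moves the ranks. In BAT the HFD lists were the longer, so ranks are not on the same footing there either.

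Where both diets had overlapping peaks at a promoter, the HFD peak was narrower at 6 of 7 promoters in BAT H3K9me2, where this held for 73.1% of all genes with such a pair, at 9 of 9 in BAT H3K9me3, against 80.4%, and at 8 of 9 in WAT H3K9me2, against 87.1%. In WAT H3K9me3 it was narrower at 0 of 4, against 24.1%. Widths at the 8 genes thus followed the same direction as those of most other genes in each pair of lists. The HFD peak had the higher rank at 3 of these 7 promoters in BAT H3K9me2, 7 of 9 in BAT H3K9me3, 1 of 9 in WAT H3K9me2 and 3 of 4 in WAT H3K9me3, against 49.6%, 83.7%, 38.4% and 51.4% of all genes.

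Peaks inside the genes were counted against gene length. The 8 genes together spanned 2510 kb and overlapped 17 peaks in SCD BAT H3K9me2, 19 in HFD BAT H3K9me2, 17 in SCD BAT H3K9me3 and 32 in HFD BAT H3K9me3. In WAT the numbers were 25 in SCD H3K9me2, 15 in HFD H3K9me2, 14 in SCD H3K9me3 and 21 in HFD H3K9me3. In SCD BAT H3K9me2 this came to 0.6772 peaks per 100 kb, against 1.501 over all protein-coding genes, and the pooled density of the 8 genes was below that of all genes in each of the 8 lists. The pooled value rests mainly on Pde4d, with 1504 of the 2510 kb. Prkar2b stood above all genes in HFD BAT H3K9me3, at 3.89 against 2.791 peaks per 100 kb. It did so too in WAT H3K9me3, at 2.918 in both diets against 1.173 under SCD and 1.501 under HFD. This was 4 peaks in HFD BAT H3K9me3 and 3 in each WAT H3K9me3 list. Of the 4, the 3 outside the promoter scored 50.97 to 57.84, near the lowest score of that list. The SCD WAT H3K9me3 peaks scored 30.28 to 57.63, in a list whose lowest score was 30. The receptor genes, of 2.491 to 3.813 kb, had 26.23 to 52.62 per 100 kb wherever a peak was listed, which for genes this short is 1 or 2 peaks. Overlapping peaks were merged over the lists into 49 regions, of which 7 were present in all 8 lists, 11 in at least 7 and 25 in 1 list. Pde4d held 31 regions, 18 of them in 1 list, and HFD BAT H3K9me3, the longest list, contributed 8 of these 18.

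Outside promoters, 4 intronic regions recurred in at least 7 lists. In Pde3a, a region 113.2 kb from the gene start was listed everywhere but SCD WAT H3K9me3, with scores from 81.1 in SCD BAT H3K9me2 to 546.3 in SCD BAT H3K9me3. In Pde4b, a region at 406.9 kb was listed in all 8, from 55.55 in SCD WAT H3K9me3 to 1854 in HFD BAT H3K9me3, above every promoter score of the set. In Pde4d, a region at 59.51 kb was listed everywhere but HFD WAT H3K9me2, from 39.25 to 646, and a region at 922.6 kb was listed in all 8, from 71.74 to 578.1. All 4 lay in intron sequence of the annotated transcripts and about 24 kb or more from any start.

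The 300 bases at the middle of 3 of these regions are shown because they turned out to share sequence. They are given on the plus strand of mm9, at chr6:141310816-141311115, chr13:109299503-109299802 and chr13:110162548-110162847. Capitals mark bases in runs of 20 or more that occur, on either strand, in all 3 whole regions, which extend beyond the 300 bases shown, so a marked run need not recur in the other stretches printed.
Pde3a at 113.2 kb: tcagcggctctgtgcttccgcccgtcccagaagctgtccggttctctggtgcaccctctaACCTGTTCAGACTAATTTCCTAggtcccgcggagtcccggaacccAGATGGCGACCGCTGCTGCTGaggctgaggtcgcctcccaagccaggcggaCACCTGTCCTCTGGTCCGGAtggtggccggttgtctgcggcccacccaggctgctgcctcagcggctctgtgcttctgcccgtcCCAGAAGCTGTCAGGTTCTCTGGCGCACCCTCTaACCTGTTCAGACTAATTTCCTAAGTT
Pde4d at 59.51 kb: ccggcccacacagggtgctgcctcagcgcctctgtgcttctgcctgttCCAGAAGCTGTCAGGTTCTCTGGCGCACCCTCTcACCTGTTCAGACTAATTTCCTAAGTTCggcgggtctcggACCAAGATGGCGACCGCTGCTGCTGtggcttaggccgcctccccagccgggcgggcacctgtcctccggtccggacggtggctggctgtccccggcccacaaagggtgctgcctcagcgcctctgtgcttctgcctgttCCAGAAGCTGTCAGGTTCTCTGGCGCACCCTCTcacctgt
Pde4d at 922.6 kb: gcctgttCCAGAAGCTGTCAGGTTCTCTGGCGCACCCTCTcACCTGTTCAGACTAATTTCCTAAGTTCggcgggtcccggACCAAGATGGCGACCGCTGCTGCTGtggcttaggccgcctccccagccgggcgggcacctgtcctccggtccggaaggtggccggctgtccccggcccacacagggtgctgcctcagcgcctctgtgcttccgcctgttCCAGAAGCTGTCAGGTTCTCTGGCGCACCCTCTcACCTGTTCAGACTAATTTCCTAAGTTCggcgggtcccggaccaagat

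The Pde3a region and both Pde4d regions shared 172 different 20-base words, counting a word and its reverse complement together. In each, the sequence repeated itself in tandem: shifted by 214 bases, 76.2% of the Pde3a region matched itself, and shifted by 212 bases, 57.7% and 49.9% of the Pde4d regions did. The word most often found in the shared part, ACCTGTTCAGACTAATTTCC, occurred 5 times in the Pde3a region and 3 times in each of these Pde4d regions. It was also present in 2 less frequent Pde4d regions, at 346.3 kb in 6 lists and at 960.3 kb in 4 lists, and in none of the other 44 regions, promoters included. Self-matching was not confined to regions with the word. Shifted by 5 bases, 64.6% of the Pde4b region at 406.9 kb matched itself. Shifted by 8 bases, 63.3% of the Pde4d region at 1065 kb did, also without the word.

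Over the placed chromosomes of mm9 this word occurred 8075 times at 3637 loci more than 5 kb apart, in 0.174% of 1 kb windows. The peaks of SCD BAT H3K9me2 contained 80.5% of these copies while covering 1.02% of the genome, and those of HFD BAT H3K9me2 71.6% in 1.71%. The share was 88.5% in SCD and 84.1% in HFD BAT H3K9me3, 71.6% in SCD and 65.7% in HFD WAT H3K9me2, and 81.9% in HFD WAT H3K9me3. SCD WAT H3K9me3 had the lowest share, 33.3%. That list lacked the Pde3a region but held both recurrent Pde4d regions, with scores of 39.25 and 71.74. Peaks with the word made up 2.75% of that list and 4.65% to 10.6% of the others. The files carry no repeat annotation, and whether the word belongs to a named repeat family was not tested; young mouse L1 retrotransposons are known for promoters built of tandem repeats. Reads that map to several places were removed by the authors before peaks were called, so coverage of near-identical copies rests on reads that tell them apart.

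**Figure D4:**
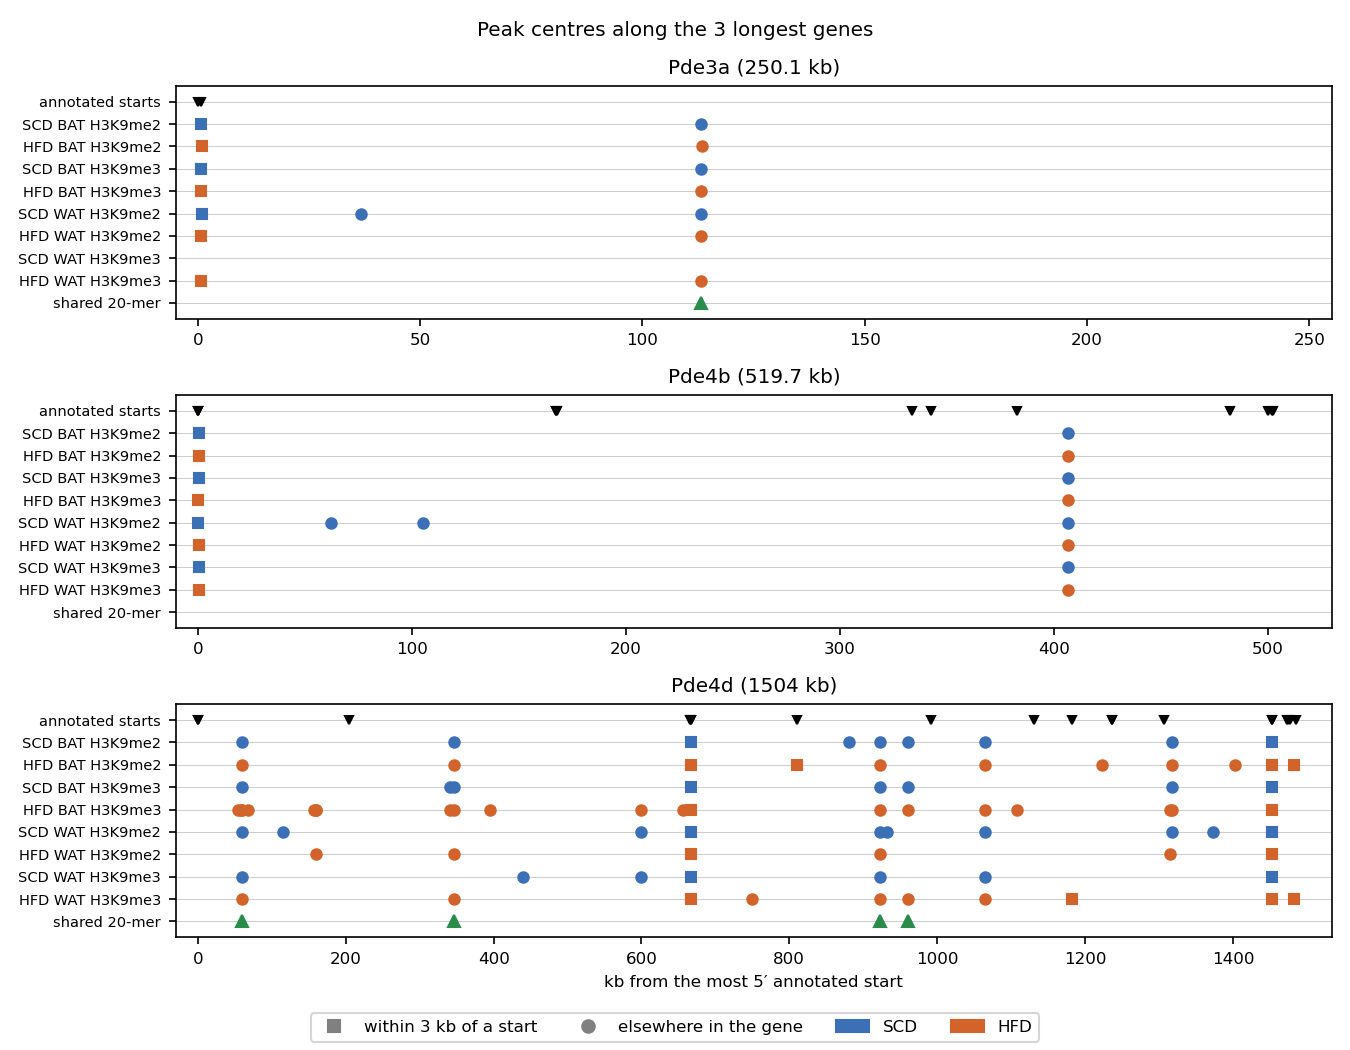
Peak centres along Pde3a, Pde4b and Pde4d, in kb from the most 5′ annotated start, with 1 row per list (SCD blue, HFD orange; squares lie within 3 kb of a start, circles elsewhere), black triangles for annotated starts and green triangles for regions holding the shared 20-base word. The columns of circles at 113.2 kb in Pde3a, 406.9 kb in Pde4b, and 59.51 and 922.6 kb in Pde4d are the recurrent intronic regions, and HFD BAT H3K9me3 has the most single circles in Pde4d.

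Regions also differed in composition by how often they recurred. The 11 regions in at least 7 lists had a median GC content of 61.4% and a median of 6.02 CG dinucleotides per 100 bases. The 25 regions in 1 list had medians of 47.9% and 1.04. Promoter regions were 7 of the 11 and 2 of the 25. Outside promoters the medians were 55.5% and 4.1 for the 4 regions in at least 7 lists, against 46.7% and 0.99 for the 23 in 1 list. Of these 4, 3 were the regions of Pde3a and Pde4d that share sequence, so they are not independent. The Pde4b region at 406.9 kb, in all 8 lists, had 1.54 CG dinucleotides per 100 bases. A Pde4d region at 1065 kb, in 6 lists, had 0.278. The promoter region of Pde3b, in 6 lists, had 10.7 per 100 bases.

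The remaining pathway was read from a list of 67 genes that also covers G protein subunits, adenylyl cyclases, other phosphodiesterases, protein kinase A subunits and inhibitors, A-kinase anchoring proteins, Epac exchange factors and CREB factors with their coactivators. Of its 59 genes beyond the 8, a promoter peak was found in BAT H3K9me2 at 45 under SCD and 37 under HFD, and in BAT H3K9me3 at 54 and 52. In WAT the numbers were 48 under SCD and 38 under HFD for H3K9me2, and 29 and 33 for H3K9me3. These shares, from 49.2% to 91.5%, lay above that of all protein-coding genes in every list. The pathway list was also chosen with earlier results of these data known, so this excess is a description and was not tested. A peak in all 8 lists was found at 13 of the 59 and in no list at 2, Gng2 and Adcy10.

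**Figure D5:**
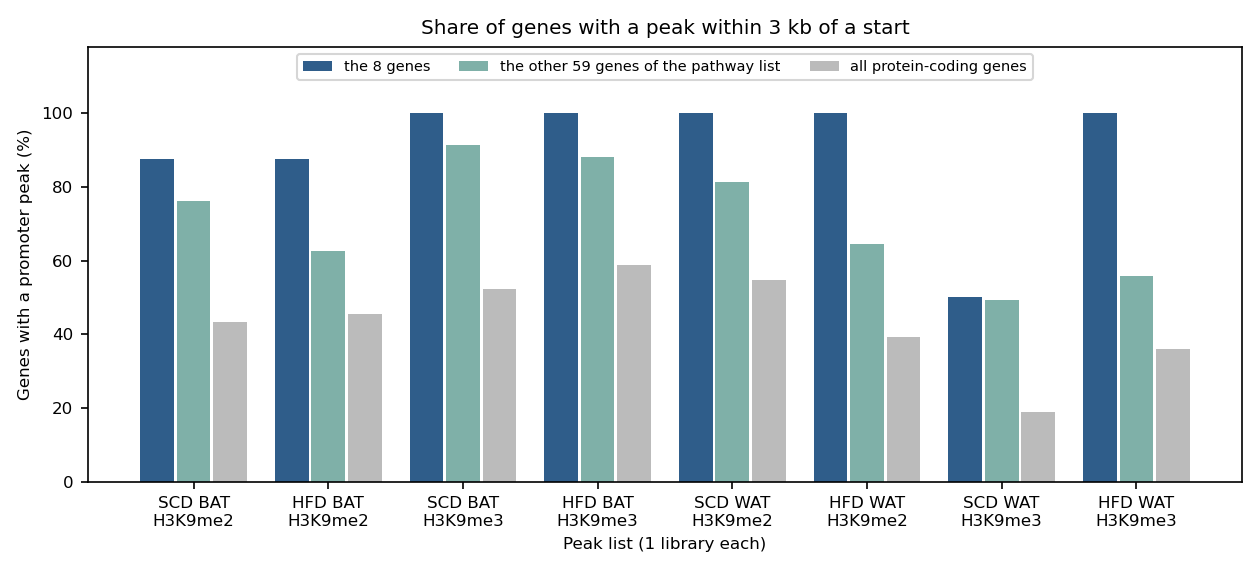
Bars give the percent of genes with a peak within 3 kb of a start in each of the 8 lists (1 library each), for the 8 genes, the other 59 genes of the pathway list and all protein-coding genes; there are no error bars because each list is 1 library. The bars fall in that order in every list, and in SCD WAT H3K9me3 the 8 genes and the other 59 stand close, at 4 of 8 and 49.2%. The 8 genes and the pathway list were chosen with earlier results of these data known.

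In the same adrenergic family, the α1-receptor gene Adra1d and the α2-receptor gene Adra2c had promoter peaks in all 8 lists, like Adrb3 and Adra2a. Adra2c scored 982.5 in SCD and 1158 in HFD BAT H3K9me3, beside 608 and 1015 for Adrb1. Adra1a, by contrast, had peaks in 3 lists, all SCD, with scores from 32.02 to 51.1. The score of 32.02, in SCD WAT H3K9me2, lay below the lowest score of 50 in HFD WAT H3K9me2. The other scores, 51.1 in SCD BAT H3K9me3 and 51.04 in SCD WAT H3K9me3, were just above 50. What part the lower limits had in the absence of Adra1a peaks under HFD was not tested.

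Among genes of the 59 with a peak in 1 diet only, BAT H3K9me2 had 13 under SCD, led by the phosphodiesterase gene Pde7a at 286.4 and the Epac gene Rapgef4 at 166.1, and 5 under HFD, led by the adenylyl cyclase gene Adcy3 at 138.5 and Pde4c at 136.7. BAT H3K9me3 had 3 under SCD, led by the anchoring protein gene Akap7 at 140.1 and Pde1a at 53.37, and 1 under HFD, Pde4c at 103.5. WAT H3K9me2 had 12 under SCD, led by Akap9 at 273.2 and Akap11 at 135.4, and 2 under HFD, Akap12 at 140.2 and Pde1a at 53.21. WAT H3K9me3 had 9 under SCD, led by Adcy4 at 64.11 and the kinase inhibitor gene Pkia at 51.76, and 13 under HFD, led by the CREB coactivator gene Crtc1 at 178 and Pde1b at 168.8. As shares of the 59, the SCD-only genes were 22% in BAT H3K9me2, against 11.5% of all protein-coding genes, 5.08% in BAT H3K9me3, against 2.16%, 20.3% in WAT H3K9me2, against 18%, and 15.3% in WAT H3K9me3, against 6.89%. The HFD-only genes were 8.47%, 1.69%, 3.39% and 22%, in the same order, against 13.8%, 8.83%, 2.63% and 23.9%. In WAT these shares compare lists with unlike lowest scores, 30 under SCD and 50 under HFD.

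The pattern of presence over the 8 lists was matched to those of the other 59 genes. Pde3b shared its pattern, a promoter peak in all lists but HFD BAT H3K9me2 and SCD WAT H3K9me3, with Creb1, encoding the cAMP-responsive transcription factor, and with the coactivator gene Crtc3, and with 2.59% of all protein-coding genes. Pde3a and Prkar2b shared theirs with 8 of the 59, among them Adcy5, Adra1b and Akap1, and with 10.7% of all genes. Adrb3, Adra2a, Pde4b and Pde4d shared theirs with 13, among them Adcy1, Adcy8 and Adcy9. No gene of the 59 had the pattern of Adrb1, which 1.34% of all genes had.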

How the data were processed

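Of 12 libraries, the 8 immunoprecipitated ones each had a deposited BED list of peaks; the 4 inputs had none and were not used. Per the labels and their processing notes, the authors used FastQC, Trim Galore, Bowtie2 2.4.2 on mm9 and MACS2, with reads mapping to several places removed; whether inputs served as controls is not given in the sources used here. The score column deposited by the authors was read as 10 times −log10 p from its range; library depth is unknown. The number of animals per library is not given in the sources used here.

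Intervals were made 1-based and compared with GENCODE vM1 genes on NCBIM37 (mm9) in Python 3.11.15; no peak ran past a chromosome end. A promoter was 3 kb on either side of any start of a protein-coding gene, a gene-body peak overlapped the gene by at least 1 bp. Gene overlaps were the same as from bedtools 2.31.1 in all 8 lists, and the code was tested on simulated data. Pde4d has a second, short gene entry with no peak, which was left out. Motifs and 20-base words were searched on both strands; the search for shared words was added after the sequences were seen. The sequence of 1 recurrent intronic region is not reported here. With 1 library per group no test was run.

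The members and the pathway list were chosen with earlier results of these data known. Named genes were all 8 members; of the other pathway genes, per tissue and mark, up to 2 with the highest-scoring peak in SCD only and up to 2 in HFD only, and up to 3, in alphabetical order, with the same presence pattern as a member. Adra1a, Adra1d, Adra2c, Gng2 and Adcy10 were named after their values were seen. Alternatives were a lowest score of 50 or 80, the upper 50% of each list, the 21976 highest peaks of each list, a promoter of 1 kb, 1 start per gene, overlap of the SCD and HFD peaks, and the midpoint rule for gene bodies; leaving out the SCD WAT H3K9me3 list was chosen after seeing the data.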

Additional observations from a re-analysis of the deposited data

How the results depend on the processing

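No paired analysis was possible because each group was 1 library, and no replicate could be left out. Of 119 values for the 8 genes, 108 stayed within 1.5 times the reported count. Many counts were at or near all 8 or none, and the alternatives mostly removed peaks or narrowed the rule. A change from 4 to 6 was within that limit, and the genes counted could differ. The tally is therefore a description and not a test. With a lowest score of 50, the genes with a promoter peak in SCD WAT H3K9me3 went from 4 to 2, and with 80 to 1. Those with a peak in every list went to 2 and 1. HFD-only genes in WAT H3K9me3 went from 4 to 6 with either score, against 30.6% of all genes with 50 and 17.5% with 80. With 1 start per gene, 3 were in every list, as Pde4d had no promoter peak in any list. In the upper 50% of each list, 2 were in every list. Adrb3 became HFD only in BAT H3K9me3 (1 gene), where 15.2% of all genes were HFD only. Adra2a became SCD only in WAT H3K9me2 (1 gene), against 17.3% of all genes, and also with a score of 80 (1 gene), against 10.7%. With 80, 2 genes, Pde3a and Pde3b, were SCD only in BAT H3K9me2, against 13.3% of all genes. Where SCD and HFD peaks had to overlap, by any amount or by 50%, 1 gene, Adra2a, was SCD only in WAT H3K9me3. The share of all genes under this rule is not given here.

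For all 67 pathway genes, 87 of 112 values held. Without any alternative, HFD-only genes were 6 and 1 in BAT H3K9me2 and H3K9me3 and 2 and 17 in WAT, SCD-only genes 14 and 3 in BAT and 12 and 9 in WAT, and genes with a peak 33 in SCD and 41 in HFD WAT H3K9me3. With a score of 50, HFD-only genes were 5 in WAT H3K9me2 and 32 in WAT H3K9me3, against 7.16% and 30.6% of all genes. SCD-only genes were 6 and 4, against 10.2% and 1.68%, and SCD WAT H3K9me3 had 13 genes with a peak. With 80, HFD-only genes were 6 in BAT H3K9me3 and 9 in WAT H3K9me2, against 9.61% and 7.92% of all genes. SCD-only genes were 1 in BAT H3K9me3 and 0 in WAT H3K9me3, against 1.92% and 0.903%. Genes with a peak were 27 in HFD and 4 in SCD WAT H3K9me3. In the upper 50%, HFD-only genes were 11 in BAT H3K9me2, 14 in BAT H3K9me3 and 5 in WAT H3K9me2. The shares of all genes were 12.9%, 15.2% and 3.93%. SCD-only genes were 1 in BAT H3K9me3, against 1.14%, and HFD WAT H3K9me3 had 27 genes with a peak. With equal numbers of peaks, HFD-only genes were 3 in BAT H3K9me3 and 5 in WAT H3K9me2, against 4.12% and 7.06% of all genes. SCD-only genes were 22 in BAT H3K9me2, 5 in BAT H3K9me3 and 6 in WAT H3K9me2, against 19%, 6.3% and 10.4%. With required overlap, by any amount or by 50%, WAT H3K9me3 had 26 HFD-only and 18 SCD-only genes, for which the share of all genes is not given here.

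Of 40 gene-body counts for the 8 genes, 30 held. With 80, peaks were 11 in HFD BAT H3K9me2, 21 in HFD BAT H3K9me3, 15 in SCD WAT H3K9me2 and 2 in SCD WAT H3K9me3. With 50, they were 16 in SCD WAT H3K9me2 and 7 in SCD WAT H3K9me3. In the upper 50%, they were 19 in HFD BAT H3K9me3 and 15 in SCD WAT H3K9me2, and with equal numbers of peaks 17 and 16. Stricter scores leave fewer peaks by construction; no other cause was tested.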

Other observations

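Downstream of the 8 genes stand the CREB factors and their coactivators. Of 6 such genes (Creb1, Atf1, Crtc1, Crtc2, Crtc3 and Crebbp), 5 had a promoter peak in SCD and 2 in HFD BAT H3K9me2, while all 6 had one in both diets in BAT H3K9me3. In WAT H3K9me2 5 had one in each diet, and in WAT H3K9me3 1 had one under SCD and 5 under HFD. Crtc2, a coactivator of CREB, was the only one of the 6 with a peak in all 8 lists. The A-kinase anchoring proteins, which tether protein kinase A near its substrates, had 8 of 9 genes with a peak in SCD and 5 of 9 in HFD BAT H3K9me2, and 9 and 8 of 9 in BAT H3K9me3. For WAT the numbers were 6 under SCD and 3 under HFD in H3K9me2, then 2 and 4 in H3K9me3. Over all protein-coding genes the shares under SCD and HFD were 43.3% and 45.6% in BAT H3K9me2, 52.3% and 58.9% in BAT H3K9me3, 54.7% and 39.3% in WAT H3K9me2, then 18.9% and 35.9% in WAT H3K9me3. Some classes had no lower count under HFD in BAT H3K9me2, with 6 of 8 adrenergic receptor genes under each diet, 5 of 7 G protein genes under each, and 7 of 10 adenylyl cyclase genes under SCD and 8 under HFD. Among the other protein kinase A genes, Prkar1b had peaks in all 8 lists with scores from 48.15 to 367.5, and the catalytic subunit gene Prkaca in 6, from 66.2 to 760.2. Each count rests on 1 library per group and was not tested. These classes were described after their values were seen.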
